A study of Saccharomyces cerevisiae with 12 samples.

Results

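The 10 genes described here build the supply of deoxynucleotides in budding yeast and protect single-stranded DNA: the ribonucleotide reductase genes RNR1 (YER070W), RNR2 (YJL026W), RNR3 (YIL066C) and RNR4 (YGR180C), the reductase inhibitors SML1 (YML058W) and HUG1 (YML058W-A), the replication protein A genes RFA1 (YAR007C), RFA2 (YNL312W) and RFA3 (YJL173C), and the recombination gene SHU2 (YDR078C). They are 10 of the 6607 distinct gene identifiers in the deposited table. HUG1 and SHU2 led to the choice, since they showed the largest differences upward after ADPRC in minimal medium. The other 8 were added by their role, but with earlier results of these data known, so their tests are not free of that knowledge. The values of the 10 genes after ADPRC in minimal medium are therefore a description, and nothing rests on a test of them there.

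Ribonucleotide reductase turns ribonucleotides into deoxyribonucleotides. Its large subunit Rnr1, or the alternative large subunit Rnr3, works with a small subunit made of Rnr2 and Rnr4. Sml1 binds and inhibits Rnr1, and Hug1 inhibits the small subunit. When DNA is damaged or forks stall, the Mec1-Rad53-Dun1 checkpoint removes Sml1 and lifts the Crt1 (Rfx1) repressor from RNR2, RNR3, RNR4 and HUG1, while replication protein A coats exposed single strands and the Shu complex, which holds Shu2, takes part in homologous recombination.

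The RNA came from the haploid alpha strain BY4742, whose genotype carries deletions in HIS3, LEU2, LYS2 and URA3 in every group alike, grown to mid-log phase in YEPD or in a minimal medium of yeast nitrogen base with complete amino acids, each with 2% dextrose. ADP-ribosylcyclase (ADPRC) swaps the nicotinamide of an NAD cap at the 5' end of an RNA for the alkyne 4-pentynol. Biotin was clicked onto the alkyne, streptavidin beads held the RNA, and cDNA synthesis started while it was bound. Mock samples went through the same steps without the enzyme, so their values are the background that the beads hold. The 4 groups, minimal mock, minimal ADPRC, YEPD mock and YEPD ADPRC, have 3 libraries each. No label states that replicates were grown separately, so a p-value here measures only how far these samples lie apart, and that spread may be technical. In bulk RNA, fewer cells with a transcript and less of it per cell cannot be told apart. Input RNA was not analysed here, so a more abundant transcript and a larger capped share of it cannot be told apart either.

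Values are normalized counts, the reads of a gene divided by 1 factor per library. Libraries held 3246900 to 13958188 recovered reads, of which open reading frames inside the ribosomal DNA took 52.9% ± 2.02 (SD, n = 3) in mock and 31.7% ± 1.34 in ADPRC libraries of minimal medium, and 80.8% ± 1.10 and 75.2% ± 8.15 in those of YEPD. Of the YEPD ADPRC libraries, 1 is called unnumbered because its column carries no replicate number. YEPD ADPRC replicate 2 stood apart from its group: its reads differed from those of its group mates by a chi-square per degree of freedom of 71.0 and 72.6, against 2.33 between those mates, and 65.9% of its reads were in ribosomal DNA frames. It followed its medium label: 44 genes at least 4-fold higher in every minimal mock than in every YEPD mock library had a median of 2.19 in it on the log2(value + 1) scale, within the 1.80 to 2.25 of all YEPD libraries and below the 6.70 to 7.40 of the minimal ones. Alpha-cell markers (4 of 4 in the table) summed to 4092 to 11668 normalized counts and a-cell markers (4 of 4) to 12.7 to 53.2. LEU2, LYS2 and URA3 were at 0 in every library, while HIS3 averaged 102 to 183 normalized counts per group, so HIS3 was not absent from the counts and does not check the genotype.

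On levels per kilobase of coding length, the 10 genes spanned a wide range in the mock libraries. SML1 was highest at 1726 ± 155 (SD, n = 3) normalized counts per kb in minimal mock and 1927 ± 106 in YEPD mock. RNR2, RNR4 and RNR1 followed with means of 1073, 1024 and 631 per kb in minimal mock and 906, 1327 and 652 in YEPD mock. The replication protein A genes lay between 125 and 184 per kb in both mock groups. RNR3, HUG1 and SHU2 were at the bottom, with mean levels of 7.80 to 14.9 per kb in minimal mock and 13.4 to 68.2 in YEPD mock. HUG1 and SHU2 passed the filter on low values (a 12-library mean of 10 or more) although their minimal mock means were 2.74 and 5.24 normalized counts, so they passed through the groups where they were higher. All 10 members passed it, among 5490 genes tested.

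**Figure D1:**
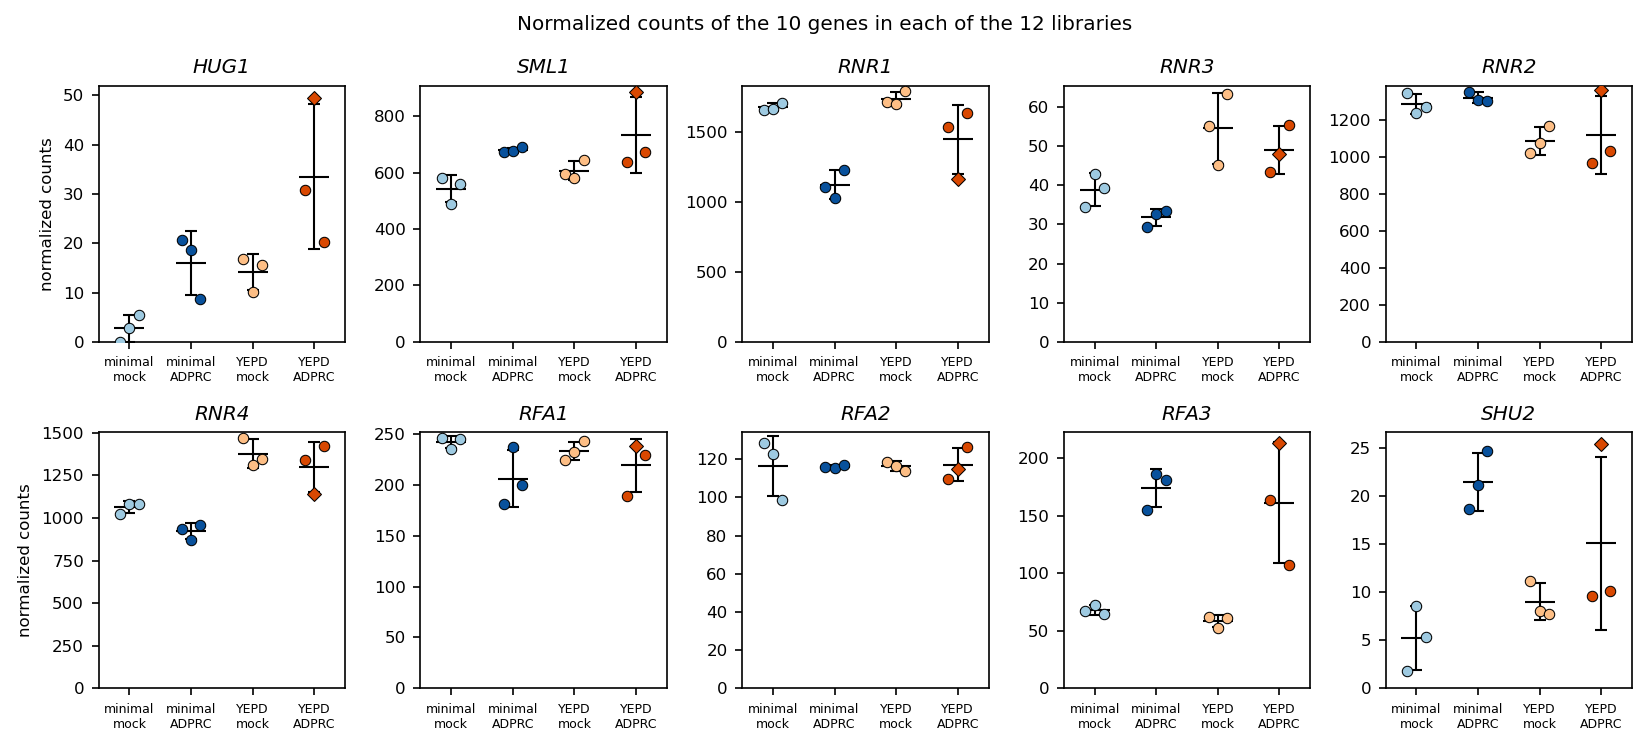
Normalized counts (y axis, from 0 on a separate scale for each gene) of the 10 genes in each library of the 4 groups (x axis); points are libraries, the diamond is YEPD ADPRC replicate 2, and bars are the mean ± SD of 3 libraries. RFA3 separated the enzyme groups from both mock groups, whereas RFA2 stayed near 116 in all 4 groups.

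The question of the enzyme comparison was which RNAs the beads hold more of once NAD caps carry biotin. In YEPD, 1 of the 10 genes passed the threshold, an adjusted p of 0.05 by limma with Benjamini-Hochberg adjustment over the 5490 genes: RFA3, which rose. Across all tested genes 5.46% passed in either direction and 4.92% passed upward, so a count of 1 in 10 is near the background. The median log2 change of the 10 genes was 0.02, against 0.00 over all genes tested. Scaling each library to the same total instead moved the median of all genes to 0.18 in YEPD and to 0.44 in minimal medium, and changes are read against that median.

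RFA3, the smallest subunit of replication protein A, was the member that rose in YEPD. Its normalized counts were 61.7, 52.2 and 60.7 in the YEPD mock libraries and 164, 213 and 107 in the YEPD ADPRC libraries, in the order unnumbered, 2 and 3. Every enzyme library was above every mock library, a separation upward that 15.2% of all tested genes shared. The log2 change was 1.40 ± 0.19 (SE), a 95% interval of 0.99 to 1.82 (adjusted p = 0.000885, limma), and it ranked 13 of 5490 from the top. Without YEPD ADPRC replicate 2 the change was 1.18 (limma, adjusted p = 1.31e-05). Over the 17 alternatives run, it lay between 0.94 and 1.67, with limma, edgeR or DESeq2 adjusted p from 1.31e-05 to 0.0473, and RFA3 passed in each.

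In minimal medium RFA3 stood at 66.9, 72.7 and 64.4 normalized counts in the mock libraries and at 155, 186 and 181 after ADPRC. The groups were apart by more than a doubling in every library pair, with a log2 difference of 1.34. The enzyme groups of both media overlapped in their RFA3 values, and the mock groups were slightly apart, with YEPD mock lowest.

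RFA1 and RFA2, which code for the large and middle subunits of the same trimer, did not follow RFA3. RFA1 was at 224, 233 and 243 normalized counts in YEPD mock and at 190, 239 and 230 in YEPD ADPRC, so the groups overlapped (log2 change -0.10 ± 0.12, 95% interval -0.35 to 0.16, limma adjusted p = 0.616). RFA2 was at 119, 116 and 114 in YEPD mock and at 110, 115 and 127 in YEPD ADPRC (log2 change 0.01 ± 0.12, interval -0.25 to 0.26, limma adjusted p = 0.976). The interval for RFA2 holds changes of either sign, and its mean was 116 to 117 normalized counts in all 4 groups. In minimal medium RFA1 was at 246, 235 and 245 in mock and 182, 237 and 200 after ADPRC, an overlap, and RFA2 at 128, 123 and 98.5 in mock and 116, 115 and 117 after ADPRC.

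A ratio within a library does not depend on how libraries are scaled, but it can still carry the trend with coding length given below. RFA3 over RFA1, per kilobase, was 1.26 ± 0.13 (SD, n = 3) in YEPD mock and 3.75 ± 1.2 in YEPD ADPRC, where the libraries ranged from 2.37 to 4.52 and none reached down to the mock maximum of 1.39. Between the means of the log ratios the difference was 2.86-fold, higher after ADPRC, with an exact two-sided permutation p of 0.1, which is the smallest that 3 libraries against 3 can give (0.2 after adjustment over 8 ratio tests). In minimal medium the same ratio was 1.42 ± 0.12 in mock and 4.29 ± 0.30 after ADPRC. RFA2 over RFA1 was 1.00 ± 0.06 in YEPD mock and 1.08 ± 0.10 in YEPD ADPRC, which overlapped (exact permutation p = 0.3, 0.4 adjusted), and 0.97 and 1.14 in minimal mock and ADPRC. Across the 4 groups the mean of RFA2 over RFA1 was thus 0.97 to 1.14, and that of RFA3 over RFA1 was 1.26 to 4.29. Lengths here run from start to stop with introns included, so the level of each ratio, unlike its change between groups, depends on that choice.

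**Figure D2:**
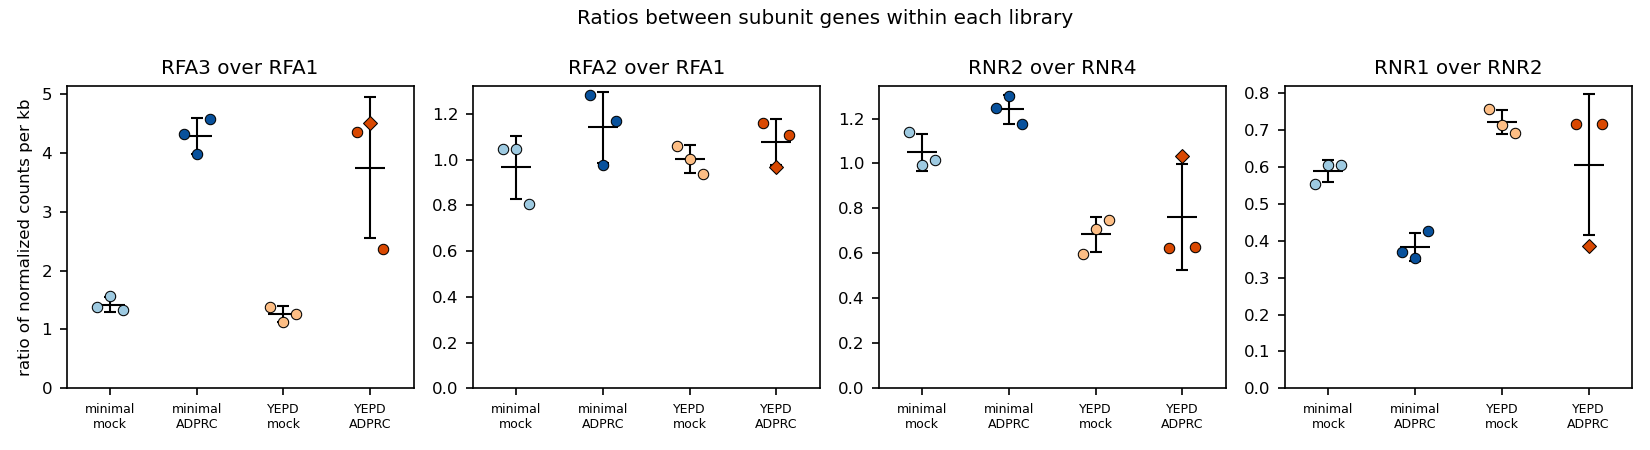
Ratios of normalized counts per kb between subunit genes within each library (y axis, from 0) in the 4 groups (x axis); points are libraries, the diamond is YEPD ADPRC replicate 2, and bars are the mean ± SD. RFA3 over RFA1 was above 2.3 in every ADPRC library and below 1.6 in every mock library, and RNR2 over RNR4 was higher in minimal medium than in YEPD.

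HUG1 codes for a short protein that binds the Rnr2-Rnr4 small subunit and is strongly induced by replication stress. In minimal medium its normalized counts were 0, 2.85 and 5.37 in mock and 20.8, 18.6 and 8.65 after ADPRC. These values rest on 0, 2 and 3 recovered reads in mock and 39, 29 and 14 after ADPRC, and 3 reads are worth 4.28 to 5.42 normalized counts in a minimal mock library. Pooled over libraries, 82 reads stood against 5, a depth-corrected ratio of 5.88 with an exact 95% interval of 2.42 to 18.6. That interval covers counting error only and makes no allowance for the choice of HUG1 by this same contrast. The log2 difference was 2.46 ± 0.57 (SE), the highest of all 5490 genes. SHU2 came next at 2.01 ± 0.44, and the gene just below it, outside the choice, was at 1.95. Counts this low leave the size to the settings: with a pseudocount of 8 the differences were 1.15 for HUG1 and 1.18 for SHU2, and without minimal mock replicate 1, the library with no HUG1 read, HUG1 was at 1.69.

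In YEPD, which the choice did not use, HUG1 was at 16.8, 10.03 and 15.5 normalized counts in mock and at 30.8, 49.5 and 20.4 in the unnumbered, 2 and 3 ADPRC libraries. All enzyme libraries were above all mock libraries, but they were far apart from each other, and the highest was replicate 2. The log2 change was 1.13 ± 0.57, a 95% interval of -0.09 to 2.35, and it did not pass (limma, adjusted p = 0.204). Without replicate 2 it was 0.82. Over the 16 alternatives that could be fitted, the adjusted p of HUG1 by limma, edgeR or DESeq2 ranged from 0.0844 to 0.639. Reads pooled over the group gave 118 against 40, a ratio of 2.54 with an exact 95% counting interval of 1.76 to 3.73, which leaves out the spread between libraries.

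The order of HUG1 levels ran from minimal mock (mean 2.74) through YEPD mock (14.1) and minimal ADPRC (16.0) to YEPD ADPRC (33.5). Minimal mock was apart from YEPD mock, and the neighbours above that overlapped. The medium difference was -2.35 on the log2 scale in mock libraries and -1.02 in ADPRC libraries, as a description. The mock difference was -1.06 with a pseudocount of 8 and -1.58 without minimal mock replicate 1, and the ADPRC difference turned to 0.40 with the same total per library.

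SHU2 codes for a subunit of the Shu complex, which acts in error-free repair by recombination. In minimal medium its normalized counts were 1.81, 8.55 and 5.37 in mock, from 1, 6 and 3 reads, and 18.6, 21.1 and 24.7 after ADPRC, from 35, 33 and 40 reads. The groups were apart, and the pooled ratio was 3.87 (108 reads against 10, exact 95% counting interval 2.03 to 8.30). That interval likewise makes no allowance for the choice of SHU2 by this contrast.

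In YEPD the SHU2 values were 11.2, 8.03 and 7.75 in mock and 9.62, 25.5 and 10.2 after ADPRC. The unnumbered library and replicate 3 lay inside the mock range, and replicate 2 alone was high, just above the minimal ADPRC libraries. The log2 change of 0.57 ± 0.44 had a 95% interval of -0.37 to 1.51 and did not pass (limma, adjusted p = 0.404). Without replicate 2 it was 0.14 (limma, adjusted p = 0.895). Whether the change of SHU2 differs between the media was not tested, because the choice used its minimal-medium values.

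**Figure D3:**
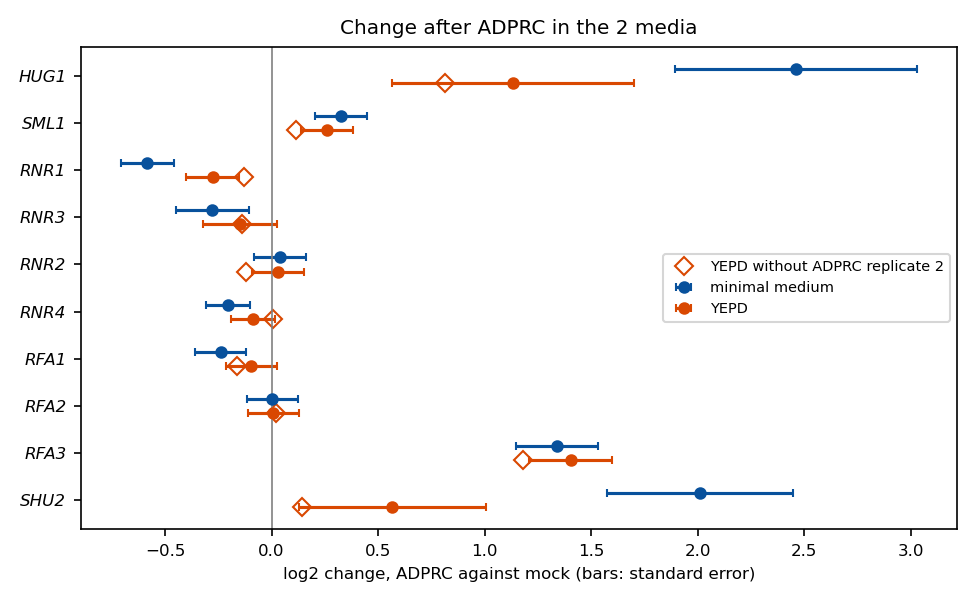
Log2 change of each gene after ADPRC against mock (x axis) in minimal medium and YEPD for the 10 genes (y axis); bars are the standard errors of limma, and open diamonds give the YEPD change without ADPRC replicate 2. HUG1, RFA3 and SHU2 lay to the right of the others in minimal medium, and RFA3 alone passed the test in YEPD.

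SML1, the Rnr1 inhibitor that the checkpoint removes, lies next to HUG1 on the chromosome. In YEPD its normalized counts were 597, 580 and 644 in mock and 639, 888 and 675 after ADPRC, with replicate 2 well above the rest and the groups overlapping. The log2 change was 0.26 ± 0.12, an interval from just below 0 to 0.52 (limma, adjusted p = 0.178), and 0.11 without replicate 2. In minimal medium it was at 582, 489 and 560 in mock and at 672, 678 and 690 after ADPRC, which were apart, with a log2 difference of 0.33. HUG1 over SML1 per kilobase was 0.0353 ± 0.0084 in YEPD mock and 0.0680 ± 0.020 in YEPD ADPRC, and 0.00782 and 0.0359 in the minimal groups. Both inhibitors of the reductase were thus read at very unequal levels in every library.

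Among the reductase subunits, RNR1, which codes for the main large subunit, differed most after ADPRC, downward, before any allowance for coding length. It was at 1663, 1669 and 1713 normalized counts in minimal mock and at 1112, 1029 and 1233 in minimal ADPRC, a gap that no library bridged (log2 difference -0.58). In YEPD it was at 1714, 1707 and 1794 in mock and at 1541, 1169 and 1639 after ADPRC. The YEPD groups were apart as well, as were 17% of all tested genes downward, and replicate 2 was the lowest, at the level of the minimal ADPRC libraries. The log2 change in YEPD was -0.28 ± 0.12, an interval of -0.54 to -0.01, which did not pass after adjustment (limma, adjusted p = 0.164), and -0.13 without replicate 2.

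RNR3, the alternative large subunit gene that damage induces, was low throughout. It was at 55.2, 45.1 and 63.3 normalized counts in YEPD mock and 43.3, 48.0 and 55.4 in YEPD ADPRC, which overlapped (log2 change -0.15 ± 0.17, interval -0.52 to 0.22, limma adjusted p = 0.590). In minimal medium it was at 34.4, 42.8 and 39.4 in mock and 29.3, 32.7 and 33.4 after ADPRC, which were just apart. The transcript of the main large subunit exceeded that of the alternative one by a wide margin: RNR1 over RNR3 per kilobase was 42.7 ± 4.60 and 31.7 ± 4.76 in the mock libraries of minimal medium and YEPD, and 34.7 ± 3.41 and 29.2 ± 5.51 in their ADPRC libraries.

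RNR2 and RNR4 code for the partners that form the small subunit. RNR2 was at 1020, 1074 and 1167 normalized counts in YEPD mock and at 968, 1362 and 1030 in YEPD ADPRC, so only replicate 2 was above the mock range (log2 change 0.03 ± 0.12, interval -0.23 to 0.29, limma adjusted p = 0.900). RNR4 was at 1472, 1313 and 1348 in YEPD mock and at 1340, 1139 and 1422 in YEPD ADPRC, with replicate 2 the lowest (log2 change -0.09 ± 0.10, interval -0.31 to 0.14, limma adjusted p = 0.597). In these transcripts replicate 2 was high for one partner and low for the other. In minimal medium RNR2 was at 1349, 1240 and 1273 in mock and 1354, 1309 and 1302 after ADPRC, which overlapped. RNR4 was at 1022, 1082 and 1085 in mock and 938, 870 and 959 after ADPRC, which did not.

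Relative to RNR2, the transcript of the large subunit was lower after ADPRC in minimal medium, and no ratio to the other partner, RNR4, was taken. RNR1 over RNR2 per kilobase was 0.589 ± 0.029 in mock libraries and 0.383 ± 0.038 in ADPRC libraries of that medium. It was 0.721 ± 0.033 in YEPD mock and 0.606 ± 0.191 in YEPD ADPRC, where replicate 2 was at 0.386 and the others at up to 0.717, and these groups overlapped (exact permutation p = 0.6, 0.686 adjusted over the 8 ratio tests). SML1 over RNR1 went the other way in minimal medium, from 2.74 ± 0.24 to 5.14 ± 0.42, and was 2.96 ± 0.08 in YEPD mock and 4.48 ± 1.69 in YEPD ADPRC. These genes differ in coding length. With the trend on length given below removed, the minimal-medium changes were -0.24 for SML1, -0.25 for RNR1, -0.04 for RNR2 and -0.37 for RNR4. In YEPD SML1 was then at -0.25 and RNR1 at -0.03.

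Of the 10 genes, 7 had enzyme and mock groups that did not overlap in minimal medium: HUG1, RFA3, SHU2 and SML1 higher and RNR1, RNR3 and RNR4 lower. Across all tested genes 54.8% were apart in that contrast, 27.5% upward and 27.3% downward. Those counts describe the contrast the genes were chosen from. Set to 1 common total per library, RNR3 and RNR4 were at 0.15 and 0.23 on the log2 scale, where the median of all genes was 0.44. Less that median they were at -0.30 and -0.21, against -0.29 and -0.22 less the median in the main fit. With the length trend removed RNR3 was at 0.044, RNR4 at -0.37 and SML1 at -0.24. In YEPD, where 32.2% of all tested genes were apart, 3 of the 10 were: HUG1 and RFA3 higher and RNR1 lower.

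The change after ADPRC moved with the length of a gene. With the tested genes split into 4 parts of near equal size by coding length, the median log2 change in YEPD was 0.33 for the shortest (78 to 798 bases), then 0.12 and -0.08, and -0.28 for the longest (1941 to 14733 bases). In minimal medium the medians were 0.43, 0.19, -0.07 and -0.37. Among the members, HUG1 (207 bases), SML1 (315), RFA3 (369) and SHU2 (672) are the shortest and had the highest values of the change, and RNR3 (2610) and RNR1 (2667) are the longest and had the lowest. With the trend on length removed, RFA3 kept a change of 0.94 in YEPD (limma, adjusted p = 0.00114), HUG1 was at 0.52 and SHU2 at 0.28. SML1 turned to -0.25, and RNR1 was at -0.03, so their YEPD changes were of the size, or below the size, that genes of their length showed. In minimal medium the values without the trend were 1.81 for HUG1, 1.66 for SHU2, 0.82 for RFA3, -0.24 for SML1 and -0.25 for RNR1. RNR4 (1038 bases) was then the lowest of the reductase subunits, at -0.22 in YEPD (limma, adjusted p = 0.305) and -0.37 in minimal medium. The part of length in these differences beyond this fit was not tested.

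**Figure D4:**
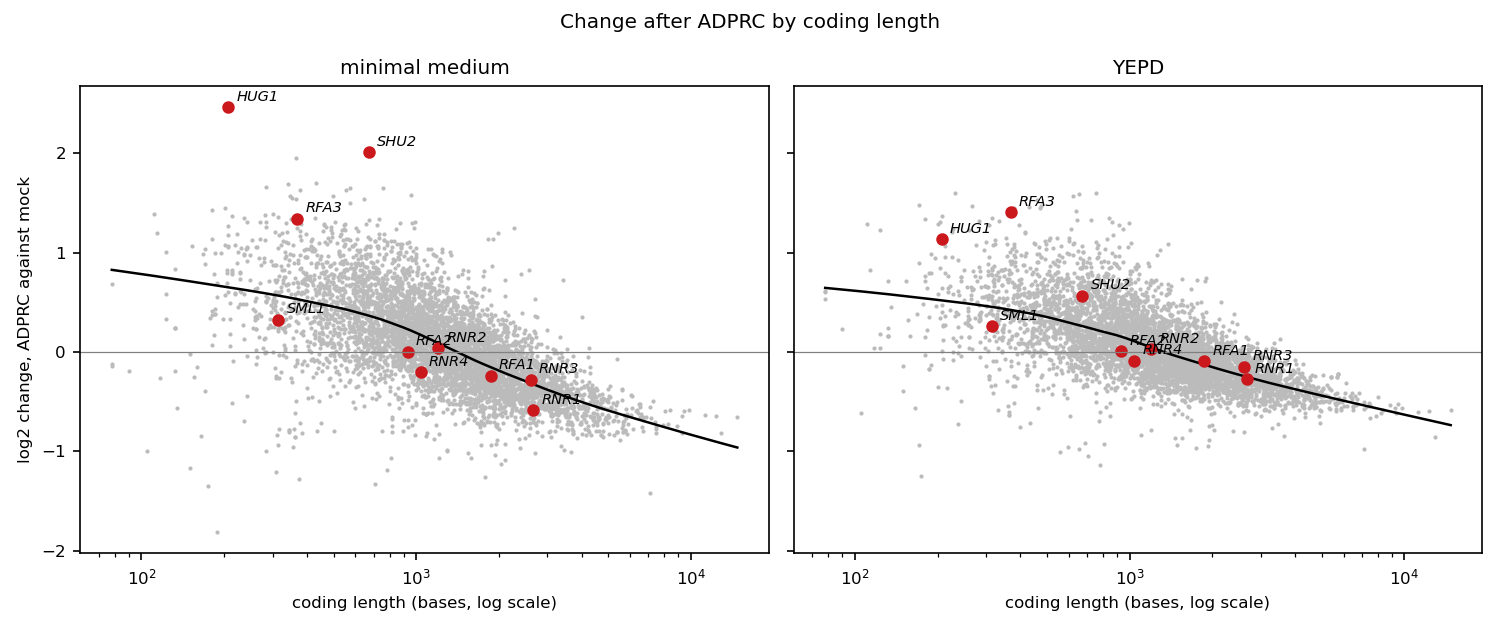
Log2 change after ADPRC against mock (y axis) by coding length in bases (x axis, log scale) in minimal medium and YEPD; grey points are the tested genes with a length, the line is a local regression, and red points are the 10 genes. RFA3, HUG1 and SHU2 lay above the line in both media, and SML1 lay below it.

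Reads of a neighbour could enter a gene's count, since the use of strand in counting is not given in the sources used here. None (0) of the 10 genes overlaps the protein-coding gene next to it on either side in the RefSeq annotation. Overlap with other kinds of gene, or of transcript ends beyond the coding span, was not checked. The neighbours of RFA3, KRE9 and CPS1, had YEPD log2 changes of -0.03 and -0.01 and minimal ones of 0.08 and 0.09. SHU2 lies between SED1, a cell wall protein gene at 14864 normalized counts in YEPD mock and 17333 in YEPD ADPRC, and PET100, which was at 25.2 ± 8.37 in minimal mock and 64.3 ± 26.2 in minimal ADPRC. SED1 had log2 changes of 0.19 ± 0.16 in YEPD and 0.36 ± 0.16 in minimal medium (limma, adjusted p = 0.444 and 0.109). PET100 was at 0.14 ± 0.39 in YEPD (limma, adjusted p = 0.842). In minimal medium, where SHU2 was also higher, PET100 passed, at 1.29 ± 0.39 (limma, adjusted p = 0.0278). The part of these neighbours in the SHU2 counts was not tested. NTE1, the other neighbour of HUG1, had a log2 change of -0.37 ± 0.13 in YEPD, which did not pass (limma, adjusted p = 0.104). In minimal medium it was at -0.44 ± 0.13 (limma, adjusted p = 0.0246).

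Growth medium was compared within the mock and within the ADPRC libraries for the 8 genes other than HUG1 and SHU2. In mock libraries 1 of 8 passed, RNR4, which was lower in minimal medium, against 29.7% of all tested genes in either direction and 22.4% downward. The log2 difference was -0.37 ± 0.10 (limma, adjusted p = 0.0167), with 1022, 1082 and 1085 normalized counts in minimal medium and 1472, 1313 and 1348 in YEPD. The median over all genes was -0.20 in this contrast, so RNR4 lay 0.18 below it, and with TMM scaling the difference was -0.18 (limma, adjusted p = 0.234). Leaving out YEPD mock replicate 1 or minimal mock replicate 1 also ended the call (limma, adjusted p = 0.0752 and 0.0621), as did removing the length trend (0.0998) and the use of edgeR (0.284) or DESeq2 (0.283). Scaling to the same total moved the median of all genes to 1.03 and turned the sign of RNR4, to 0.87.

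In ADPRC libraries 3 of 8 passed, all lower in minimal medium, against 32.8% of all tested genes in either direction and 25.7% downward: RNR4 (-0.49 ± 0.10, limma adjusted p = 0.00323), RNR3 (-0.60 ± 0.17, limma adjusted p = 0.0175) and RNR1 (-0.35 ± 0.12, limma adjusted p = 0.0421). Relative to the median of all genes, which was -0.19, they lay at -0.30, -0.41 and -0.16. With TMM scaling none of these 3 passed (limma, adjusted p = 0.0656, 0.114 and 0.394), and with the same total all 3 had a positive sign, at 1.00, 0.85 and 1.13, where the median of all genes was 1.28. None of the 3 passed by edgeR (adjusted p = 0.0737, 0.0749 and 0.374) or DESeq2 (adjusted p = 0.0516, 0.184 and 0.419). With the length trend removed RNR4 passed (limma, adjusted p = 0.0114), while RNR3 did not (0.427) and RNR1 did not (0.858). RNR1 also lost its call without the unnumbered YEPD ADPRC library (limma, adjusted p = 0.145) and without YEPD ADPRC replicate 3 (0.168), minimal ADPRC replicate 1 (0.111) or minimal ADPRC replicate 2 (0.152). RNR3 lost it without YEPD ADPRC replicate 3 or minimal ADPRC replicate 1 (limma, adjusted p = 0.0816 and 0.0705) and with the replicate number as a block (0.0553), as did RNR1 with a block (0.158).

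RNR2 leaned the other way from RNR4 between the media. It was 0.24 ± 0.12 higher in minimal medium in mock libraries (limma, adjusted p = 0.142) and 0.25 ± 0.12 in ADPRC libraries (0.123), which did not pass. With TMM scaling both passed, at 0.43 and 0.46 (limma, adjusted p = 0.0228 and 0.0180), as did the ADPRC difference by edgeR (adjusted p = 0.0415) and DESeq2 (0.0220) and without YEPD ADPRC replicate 2, at 0.40 (limma, adjusted p = 4.2e-05). The ratio of the small subunit genes, RNR2 over RNR4 per kilobase, which no scaling touches, was 1.05 ± 0.08 in minimal mock and 0.685 ± 0.077 in YEPD mock. The lowest minimal library, at 0.992, was above the highest YEPD one, at 0.749, a 1.53-fold difference between mean logs (exact permutation p = 0.1, the smallest possible, 0.2 adjusted). In ADPRC libraries it was 1.24 ± 0.06 in minimal medium and 0.762 ± 0.236 in YEPD, also apart, with YEPD replicate 2 at 1.03 (1.68-fold between mean logs, exact permutation p = 0.1, 0.2 adjusted).

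RNR1 over RNR3 was likewise apart between the media in mock libraries (1.35-fold higher in minimal medium between mean logs, exact permutation p = 0.1, 0.2 adjusted) and overlapped in ADPRC libraries (exact permutation p = 0.2, 0.32 adjusted). SML1, RFA1, RFA2 and RFA3 did not pass in either medium contrast, with log2 differences of -0.16 to 0.22. Between the media the share of ribosomal DNA frames on the Watson strand also differed: they took 62.3% of the values in YEPD mock and 0.0383% in minimal mock. The sources used here do not state that counting was done alike in both media. The part of that difference in the medium values was not tested.

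The wider pathways were read from 5 lists. Of 18 checkpoint genes that govern dNTP supply, such as MEC1, RAD53, DUN1 and RFX1, none (0) passed in YEPD by limma, edgeR or DESeq2, with a median log2 change of -0.11, while 2 were higher and 2 lower at an unadjusted limma p under 0.05. Of 11 genes of deoxynucleotide synthesis and reduction outside the reductase, 1 rose in YEPD and 0 fell, with a median of 0.35. Of 16 Shu complex partners and recombination genes and of 11 other damage-inducible genes, none (0) passed by any of these tools, with medians of -0.11 and 0.00. At an unadjusted limma p under 0.05, 1 and 3 of the first list were higher and lower, and 1 and 0 of the second. Of 20 replication fork genes 1 rose and 0 fell, with a median of -0.24, and 7 were lower at an unadjusted limma p under 0.05. No fork gene or nucleotide synthesis gene fell by edgeR or DESeq2 (0 each), and 0 of the 11 synthesis genes were lower at an unadjusted limma p under 0.05. By comparison, 4.92% of all tested genes rose in YEPD and 0.546% fell, with a median of 0.00. None of these list values allows for coding length, along which the median YEPD change fell from 0.33 to -0.28 over the 4 length parts.

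DFR1, which codes for dihydrofolate reductase and so sustains thymidylate synthesis, was the gene of the nucleotide list that rose. It went from 56.4 ± 1.02 (SD, n = 3) normalized counts in YEPD mock to 152 ± 2.55 in YEPD ADPRC (log2 change 1.42 ± 0.13, limma adjusted p = 4.55e-05), a change of the size of that of RFA3, and stayed at 1.42 without replicate 2. In minimal medium it was at 60.9 ± 11.02 in mock and 113 ± 6.63 after ADPRC. RFC4, a subunit of the clamp loader, rose from 79.9 ± 6.34 to 130 ± 2.00 in YEPD (log2 change 0.70 ± 0.14, limma adjusted p = 0.0130). That call was lost with a fit of only the groups compared (limma, adjusted p = 0.0527), with the length trend removed (0.0561), with the replicate number as a block (0.0723) and without YEPD mock replicate 1 or 2 (0.0733 and 0.0519).

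In minimal medium, where 28.8% of all tested genes passed, 14.2% upward and 14.6% downward, the lists held 2 genes up and 0 down among the checkpoint genes, 3 and 0 in nucleotide synthesis, 2 and 4 in recombination, 2 and 2 among the damage-inducible genes, and 2 and 7 at the fork. In recombination RAD55 and the Shu complex partner PSY3 were up, and SRS2, RAD52, SGS1 and EXO1 were down. The other Shu complex partners on that list, SHU1 and CSM2, did not pass. At the fork RFC4 and RFC5 were up, and MCM2, MCM3, MCM5, MCM6, MCM7, POL1 and POL2 were down. The list medians were -0.07, 0.38, -0.12, -0.06 and -0.16, against 0.01 over all genes tested. Coding length was not allowed for in these counts and medians. From the shortest to the longest of the 4 length parts, the median change in minimal medium fell from 0.43 to -0.37. The part of length in the list values was not tested.

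Over the 12 libraries, the genes outside the set whose log2 values followed HUG1 most closely were YOR338W, MBA1 and COS10 (Pearson r of 0.96, 0.96 and 0.93). Those closest to SHU2 were PUS9, LOT6 and YML018C (r of 0.95, 0.94 and 0.94). For RNR1, the member with the highest mean, they were ALA1, YGR054W and TIF4632 (r of 0.99 each). These are descriptions over libraries that share 4 groups, and depth and length move with them.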

How the data were processed

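The deposited table holds 1 column per library (12 libraries, 0 columns of other samples) and 6608 rows, of which 1 identifier is duplicated. The values form a signal: read counts per gene that the authors normalized, per the file headers. In all columns 100% of values were whole multiples of 1 step per library (tolerance 0.01 reads), so reads were recovered, except that YEPD mock replicate 2, with a step near 1, was left out of the count tools (11 libraries). Per the submitters' processing notes, the tools were FastQC, Trimmomatic, Bowtie, HTSeq and DESeq. Not given in the sources used here: their versions and order, the build, the annotation, strand use and the treatment of multiply placed reads.

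Values were tested as log2(value + 1) for genes with a mean of at least 10, so that fold changes of low genes are understated, with limma 3.58.1 (trend, robust) in R 4.3.3: 1 model, 4 group means, Benjamini-Hochberg adjustment, threshold 0.05, two-sided. Errors are SE for changes and SD for means. Ratios were tested with exact permutation tests in scipy 1.17.1. Counting intervals and floors of 3 reads cover counting error only, since PCR copies cannot be told apart. Alternatives were a pseudocount of 8, no filter or a mean of at least 50, TMM, the same total per library, only the groups compared, a length trend removed, a replicate block, no trend and no robust step, each library left out, and edgeR 4.0.16 and DESeq2 1.42.0 on recovered reads. Scripts were tested on simulated data.

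Replicate pairs differed by a chi-square per degree of freedom of 1.23 to 72.6, so no column was counted as a copy of another. Minimal mock pairs were lowest, at 1.23, 1.42 and 1.77, and minimal ADPRC pairs were at 4.15 to 12.2. This check cannot tell whether libraries were split from 1 RNA, and the spread shared by the 4 groups in the fit was not alike in them. Symbols, coding lengths (start to stop, introns included, 96.9% multiples of 3) and neighbours come from RefSeq R64, which matched 5919 identifiers and not 688. Genes outside the set are named where a list gene passed in YEPD (at most 4 per list), as neighbours, as examples or members that passed in minimal medium, or as the 3 most correlated with HUG1, SHU2 and the member of the highest mean; the neighbours and the minimal-medium examples were chosen after their values were seen. The genes and lists were chosen with earlier results of these data known.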

Additional observations from a re-analysis of the deposited data

How the results depend on the processing

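RFA3 passed in YEPD in every alternative run. The count of genes past the threshold in YEPD was 300, and became 134 with edgeR, 166 with the length trend removed, 46 with only the groups compared and 150 with a replicate block, and 107 to 1109 with a library left out (414 without YEPD ADPRC replicate 2, 1109 without replicate 3). In minimal medium it was 1583, and became 805 with the length trend removed, 2550 with only the groups compared, 2537 with the same total and 548 to 995 with a library left out. Between media it was 1628 in mock libraries (745 with DESeq2, 752 with edgeR, 2634 with only the groups compared, 5166 with the same total, 1081 to 1251 with a library left out) and 1798 in ADPRC libraries (988 with DESeq2, 1090 with TMM, 1016 with edgeR, 1178 with the length trend removed, 947 with only the groups compared, 876 with a replicate block, 5330 with the same total, 1060 to 3173 with a library left out). The same total moved the split of higher against lower from 780 and 803 to 2488 and 49 in minimal medium, from 400 and 1228 to 5004 and 162 in mock libraries, and from 387 and 1411 to 5192 and 138 in ADPRC libraries; TMM gave 651 and 494, and 636 and 454, between media. The cause of these shifts was not tested.

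In minimal medium, the contrast HUG1 and SHU2 were chosen from, 4 members were past the threshold beside 28.8% of all genes, which is read as no support, and 2 with a mean of at least 50, where HUG1, SHU2 and RNR3 were not tested. In the mock medium contrast the count of 1 (RNR4) became 0 with DESeq2 and edgeR, 2 with the length trend removed (RNR1 and RNR2, both higher, with RNR4 lost), 2 without the trend and robust steps, with only the groups compared and with a pseudocount of 8 (RNR4 among them each time), 8 with the same total and 0 to 2 with a library left out. In the ADPRC medium contrast the count of 3 (RNR1, RNR3 and RNR4) became 1 with DESeq2, TMM and edgeR, which was RNR2, higher, and 1 with a replicate block, RNR4, 8 with the same total and 1 to 5 with a library left out. Of 15 same-numbered pairs, 2 had a correlation of their deviations above 0.1 (range -0.15 to 0.32). Both were ADPRC libraries across the media, replicate 2 (0.32) and replicate 3 (0.22). The crossed numbers, minimal ADPRC 2 with YEPD ADPRC 3 and minimal ADPRC 3 with YEPD ADPRC 2, were at -0.23 and -0.30. Whether the numbers mark a batch shared by ADPRC libraries was not tested.

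Signs of the tested values turned as follows, on the log2 scale. In YEPD after ADPRC, RFA1 was at 0.028 with the length trend removed and 0.095 with the same total, RFA2 at -0.015 with DESeq2 and -0.17 with the length trend removed, RNR2 at -0.032 and SML1 at -0.25 with the length trend removed, RNR3 at 0.095 with it removed and 0.040 with the same total, and RNR4 at 0.10 with the same total. With a library left out, RFA1 ranged from -0.16 to 0.0050, RFA2 from -0.050 to 0.053, RNR2 from -0.12 to 0.13 and RNR4 from -0.16 to 0.0043. In the ADPRC medium contrast, with DESeq2, TMM, edgeR and the same total in turn, RFA1 was at 0.10, 0.11, 0.10 and 1.39, RFA2 at 0.18, 0.19, 0.18 and 1.47, and SML1 at 0.078, 0.11, 0.081 and 1.39. With the length trend removed RFA1 was at 0.18, RFA2 at 0.047 and RNR1 at 0.024, and with the same total RNR1 was at 1.13, RNR3 at 0.85 and RNR4 at 1.00. With a library left out, RFA2 ranged from -0.056 to 0.047, RFA3 from -0.10 to 0.39 and SML1 from -0.19 to 0.050. In the mock medium contrast, with DESeq2, TMM, edgeR, the length trend removed and the same total in turn, RFA2 was at 0.17, 0.18, 0.19, 0.096 and 1.23 and RNR1 at 0.11, 0.14, 0.12, 0.25 and 1.199. With the same total RNR3 was at 0.75, RNR4 at 0.87 and SML1 at 1.08, SML1 was at 0.028 with TMM, and RFA2 ranged from -0.081 to 0.11 with a library left out. Among values given as a description, the same total turned HUG1 in the ADPRC medium contrast to 0.40, SHU2 in the mock medium contrast to 0.23 and, after ADPRC in minimal medium, RFA1 to 0.19, RNR3 to 0.15 and RNR4 to 0.23. There the length trend removed turned RFA2 to -0.22, RNR2 to -0.043, RNR3 to 0.044 and SML1 to -0.24, and RFA2, at 0.0038, also turned with DESeq2 (-0.0074) and in turn with a library left out (down to -0.11).

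Depth limits HUG1 and SHU2, which had 5 and 10 reads over the minimal mock libraries.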
